A study of Sus scrofa with 6 samples.

Results

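The genes described here encode the channels, pumps and water pores that move liquid across the lung epithelium. They were chosen by name for their role in lung liquid, and 9 were listed: the epithelial sodium channel (ENaC) subunits SCNN1A, SCNN1B and SCNN1G, the Na,K-ATPase subunit ATP1B1, the chloride channel CFTR, the chloride importer SLC12A2, and the aquaporins AQP1, AQP4 and AQP5. Of these, 7 were matched to a row by symbol among the 14579 mRNAs of the table. No row was matched to AQP1 or AQP4, and they were not analysed here. Lung tissue came from 6 female piglets of a Tibetan-Meishan cross, with Tibetan sires and Meishan dams and no treatment or genetic change. The fetal group (Fetal1, Fetal2 and Fetal3) was 3 piglets of 3 sows, delivered by caesarean section in the final day of gestation. The neonatal group (Neonatal1, Neonatal2 and Neonatal3) was 3 piglets from another 3 sows, taken 2 days after birth. Birth itself, age and any other difference between the sets of litters therefore cannot be told apart.

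Before birth the lung is a secreting organ. SLC12A2 loads chloride into epithelial cells, chloride leaves through apical channels such as CFTR, and water follows into the future airspace. Around birth the epithelium turns to absorption: sodium enters through ENaC in the apical membrane, the Na,K-ATPase exports it at the base of the cell, and water follows, in part through aquaporins such as AQP5 of alveolar type I cells. Channel activity is set by much more than RNA, since kinases, ubiquitin ligases and proteases act on the ENaC protein.

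RNA-seq was performed from 1 Ribo-Zero strand-specific library per piglet, and levels are FPKM, fragments scaled by transcript length and mapped library size, as the authors deposited them. The summed FPKM of the mRNAs lay between 339500 and 471200 in the fetal libraries and between 491500 and 778000 in the neonatal libraries. The files hold no read counts, so counting error is unknown, and the spread between the 3 piglets of a group is the error given. Differences are neonatal minus fetal means of log2(FPKM + 1), with intervals and p-values from limma, with Benjamini-Hochberg adjustment across the 14579 mRNAs. The lung label was checked with the alveolar markers SFTPC and AGER, which were high in all 6 libraries. SFTPC, a surfactant protein of alveolar type II cells, lay between 3171 and 8790 FPKM. AGER of alveolar type I cells lay between 395.7 and 766.8 FPKM. Some other type I markers were low, such as PDPN at 1.08 to 7.55 FPKM and AKAP5 at 0.741 to 3.87 FPKM.

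At the level of RNA, none of the 7 channels and pumps passed the threshold of an adjusted p of 0.05 or less (limma, 0 of 7), where 6.87% of all mRNAs did. At an unadjusted p under 0.05 there was 1, SCNN1A, where 24.2% of all mRNAs reached that level. An exact permutation test of a single gene cannot go below a two-sided p of 0.1 with 3 piglets against 3, a value reached by SCNN1A, SCNN1G and CFTR. Neonatal means were lower than fetal means for 4 genes (SCNN1A, SCNN1G, ATP1B1 and SLC12A2) and higher for 3 (SCNN1B, CFTR and AQP5). Their median difference was -0.26 on the log2 scale, against 0.13 for all mRNAs. This median was -0.42 with median-of-ratios scaling, -0.45 with quantile normalization, -0.13 without Fetal2 and -0.15 without Neonatal3. In 3 of the 7 there was no overlap between groups, near the 30.5% of all mRNAs without overlap. Of these, 2 lay below the fetal values, where 9.64% of all mRNAs did, and 1 above, where 20.9% did. After median-of-ratios scaling SLC12A2 also lay below the fetal values without overlap, and the groups of CFTR overlapped. With 7 genes, these counts are a description only.

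**Figure D1:**
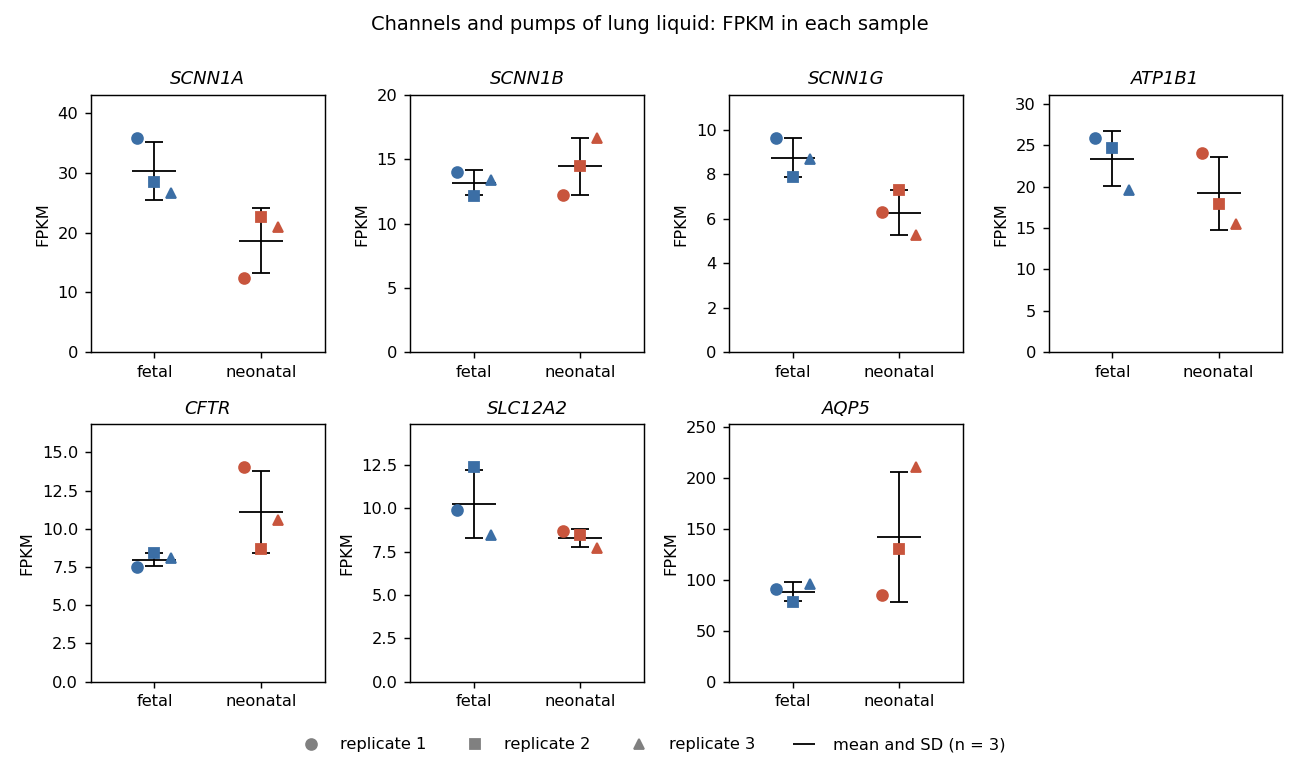
FPKM (y axes, each from 0) of the 7 matched channels and pumps in the fetal and neonatal samples, with 1 point per piglet, the symbol giving the replicate and the bar and whiskers the mean and SD (n = 3). The neonatal points of SCNN1A (12.4 to 22.6) and SCNN1G (5.26 to 7.31) lie below all fetal points, those of CFTR (8.69 to 14.0) lie above them, and the groups of the other 4 genes overlap.

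The alpha subunit of ENaC, SCNN1A, is needed for channel function. Its row is ENSSSCG00000000707. SCNN1A reached 35.8, 28.5 and 26.5 FPKM in Fetal1, Fetal2 and Fetal3 and 12.4, 22.6 and 21.0 FPKM in Neonatal1, Neonatal2 and Neonatal3. All neonatal values lay below all fetal values, and Neonatal1 stood lowest. The mean went from 30.3 ± 4.89 to 18.6 ± 5.47 FPKM (SD, n = 3 each), or 0.616 times the fetal mean. The difference of -0.70 on the log2 scale (95% interval -1.31 to -0.10) had an adjusted p of 0.154 in limma, with an unadjusted p of 0.0282. It was -0.45 without Neonatal1. Under quantile normalization SCNN1A passed the threshold, at -0.97 and an adjusted p of 0.0366. With median-of-ratios scaling it was -0.87 and the adjusted p was 0.0587.

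The beta subunit, SCNN1B (ENSSSCG00000028923), raises the number of channels at the surface together with the gamma subunit. SCNN1B stood at 14.0, 12.2 and 13.4 FPKM in the fetal piglets, against 12.2, 14.5 and 16.7 FPKM in the neonatal piglets. The groups overlapped, with Neonatal1 next to the lowest fetal sample and Neonatal3 highest. The difference was 0.12 (95% interval -0.31 to 0.54; limma adjusted p = 0.726), and its sign depended on scaling, at -0.05 with median-of-ratios scaling, -0.09 with quantile normalization and -0.01 when samples were centred on epithelial markers. The interval spans 0.809 to 1.45 times the fetal level on the FPKM + 1 scale.

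For the gamma subunit, SCNN1G (ENSSSCG00000007836), the fetal samples held 9.65, 7.90 and 8.72 FPKM and the neonatal samples 6.30, 7.31 and 5.26 FPKM. Each neonatal value was below each fetal value, with the narrowest gap between Fetal2 and Neonatal2. The mean went from 8.76 ± 0.872 to 6.29 ± 1.03 FPKM (SD, n = 3 each). The difference was -0.43 (95% interval -0.86 to 0.01; limma adjusted p = 0.217), and it was below 0 under every alternative run and with any sample left out.

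Because the 3 subunits assemble into 1 channel, their shares within a sample were compared. Such shares do not depend on a scaling factor per sample. SCNN1A made up 60.2%, 58.7% and 54.5% of the summed FPKM of the subunits in the fetal samples, and 40.1%, 50.8% and 48.9% in the neonatal samples. SCNN1B made up 23.6%, 25.1% and 27.5% before birth and 39.6%, 32.7% and 38.9% after it. The share of SCNN1A was thus lower and that of SCNN1B higher in each neonatal sample than in any fetal sample. SCNN1G kept a mean share of 16.8% ± 0.963 and 16.4% ± 4.06 (SD, n = 3 each), with overlapping groups. In the fetal samples there was between 1.98 and 2.56 times as much SCNN1A as SCNN1B, and in the neonatal samples between 1.01 and 1.56 times as much. The ratio of SCNN1B to SCNN1G was 1.45, 1.54 and 1.54 before birth and 1.94, 1.98 and 3.17 after it. The summed FPKM of the subunits was 52.2 ± 6.27 in the fetal group and 39.4 ± 7.38 in the neonatal group (SD, n = 3 each), with all neonatal sums below all fetal sums. These shares and sums were chosen with earlier results of these data known, and they are given as a description with no test.

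**Figure D2:**
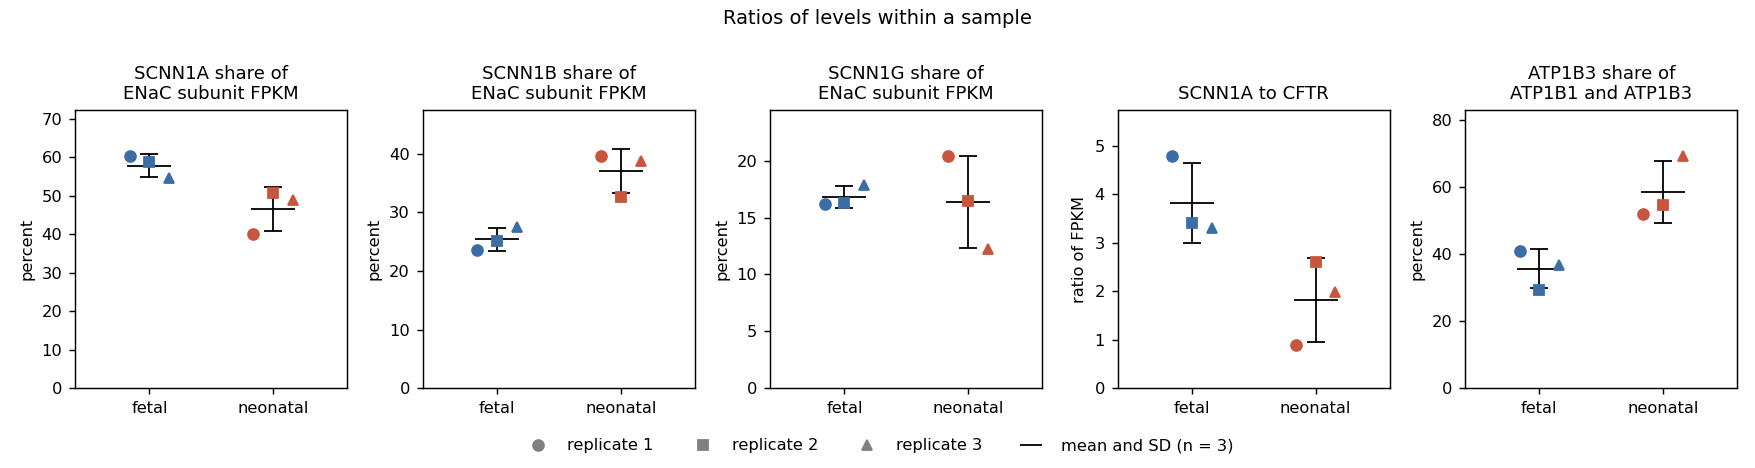
Ratios of FPKM within a sample (y axes from 0, in percent or as a ratio) for the fetal and neonatal groups, with 1 point per piglet and the mean and SD (n = 3). The shares of SCNN1A (57.8% and 46.6% on average) and SCNN1B (25.4% and 37.0%), the ratio of SCNN1A to CFTR (3.82 and 1.82) and the share of ATP1B3 in ATP1B1 and ATP1B3 (35.6% and 58.5%) separate the groups, and the share of SCNN1G (16.8% and 16.4%) does not. The separation in SCNN1A to CFTR is fixed by the separation of each of these genes.

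On the secretory side, CFTR (ENSSSCG00000016626) is the cAMP-activated chloride channel of the apical membrane. CFTR had 7.50, 8.39 and 8.06 FPKM in the fetal piglets, against 14.0, 8.69 and 10.5 FPKM in the neonatal piglets. The neonatal values all lay above the fetal values as deposited, with Neonatal2 closest and Neonatal1 highest. After median-of-ratios scaling the groups overlapped, since Neonatal2 stood at 8.01 and Fetal2 at 9.24. The mean went from 7.98 ± 0.451 to 11.1 ± 2.70 FPKM (SD, n = 3 each), a difference of 0.41 on the log2 scale (95% interval -0.08 to 0.89; limma adjusted p = 0.276). Without Neonatal1 the difference was 0.24, and with median-of-ratios scaling or quantile normalization it was 0.25.

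SLC12A2 (ENSSSCG00000014255), the Na-K-2Cl cotransporter that brings chloride into the cell for secretion, was at 9.91, 12.4 and 8.47 FPKM before birth and at 8.70, 8.44 and 7.71 FPKM after it. As deposited, the groups overlapped through Fetal3, and Fetal2 stood highest. After median-of-ratios scaling they did not overlap, with Neonatal1 at 8.69 and Fetal3 at 8.95. The difference was -0.26 (95% interval -0.71 to 0.18; limma adjusted p = 0.434). Without Fetal2 it was -0.13, and with median-of-ratios scaling and quantile normalization -0.42 and -0.45. The ratio of SLC12A2 to CFTR was 1.32, 1.47 and 1.05 in the fetal samples and 0.621, 0.970 and 0.731 in the neonatal samples, so that SLC12A2 had the higher level in all 3 fetal samples and CFTR in all 3 neonatal samples. Between absorption and secretion, the ratio of SCNN1A to CFTR was 4.78, 3.39 and 3.29 before birth and 0.884, 2.59 and 1.99 after it. Neonatal1, with the lowest SCNN1A and the highest CFTR, had the lowest ratio. The groups did not overlap, which was fixed by SCNN1A lying lower and CFTR higher in every neonatal sample. These ratios are given as a description with no test.

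ATP1B1 (ENSSSCG00000006296) encodes a beta subunit of the Na,K-ATPase, which helps the pump to reach the membrane. ATP1B1 stood at 25.9, 24.7 and 19.6 FPKM in the fetal piglets, against 24.1, 17.9 and 15.5 FPKM in the neonatal piglets. The groups overlapped, because Neonatal1 reached the fetal range. The difference was -0.29 (95% interval -0.79 to 0.22; limma adjusted p = 0.457). It was -0.45 without Neonatal1, -0.15 without Neonatal3 and -0.52 under quantile normalization.

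AQP5 (ENSSSCG00000000211), the water channel in the apical membrane of alveolar type I cells and of airway glands, had the highest level of the genes described here. AQP5 had 91.0, 78.0 and 96.1 FPKM before birth and 84.8, 129.8 and 210.5 FPKM after it. The groups overlapped, as Neonatal1 lay inside the fetal range while Neonatal2 and Neonatal3 lay above it. The mean went from 88.4 ± 9.36 to 141.7 ± 63.7 FPKM (SD, n = 3 each). The difference of 0.58 in AQP5 had a 95% interval of -0.20 to 1.36 (limma adjusted p = 0.327). It was 0.25 without Neonatal3, 0.90 without Neonatal1 and 0.13 under quantile normalization. The ratio of AQP5 to AGER, another type I cell gene, was 0.158, 0.192 and 0.125 in the fetal samples and 0.214, 0.187 and 0.291 in the neonatal samples. The ratio of AQP5 to the epithelial keratin KRT8 averaged 0.718 ± 0.0357 and 0.723 ± 0.131 (SD, n = 3 each). Both ratios overlapped between the groups.

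FPKM is per transcript length, so the levels could also be ordered within each group. In the fetal group AQP5 came first, above 96.4% of all mRNAs, followed by SCNN1A (above 90.1%) and ATP1B1 (above 86.7%). The ranges of these 3 genes and of the next, SCNN1B, did not meet. From SCNN1B through SLC12A2 and SCNN1G to CFTR, the lowest at 7.98 FPKM, the ranges of neighbours met. In the neonatal group AQP5 was again first, and the order below it was ATP1B1, SCNN1A, SCNN1B, CFTR, SLC12A2 and SCNN1G. Here the ranges of neighbours met from ATP1B1 down to SLC12A2, and SCNN1G alone stood below the rest, at 6.29 FPKM. SCNN1A was above SCNN1B in 3 of 3 neonatal samples, although their ranges met. The spread between piglets was larger after birth for all but SLC12A2. The coefficient of variation went from 10.6% to 44.9% for AQP5, from 5.64% to 24.4% for CFTR and from 19.2% to 6.22% for SLC12A2.

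The other genes of the pathway were taken from 7 lists with 90 genes, of which 47 were matched to a row. Of these 47, 3 rose (AQP3, FURIN and ST14), 2 fell (NEDD4L and CLDN8) and 42 did not pass the threshold. This compares with 5.41% of all mRNAs that rose and 1.45% that fell. The balance turned with scaling: 2 rose and 4 fell with median-of-ratios scaling, and likewise 2 and 4 with quantile normalization. The median difference of the 47 genes was 0.08, against 0.13 for all mRNAs, and it was -0.08 and -0.19 under these settings. As deposited, the groups did not overlap in 16 of the 47, near the 30.5% of all mRNAs. Counts for single lists stand against the same shares of all mRNAs, 6.87% past the threshold and 24.2% at an unadjusted p under 0.05.

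**Figure D3:**
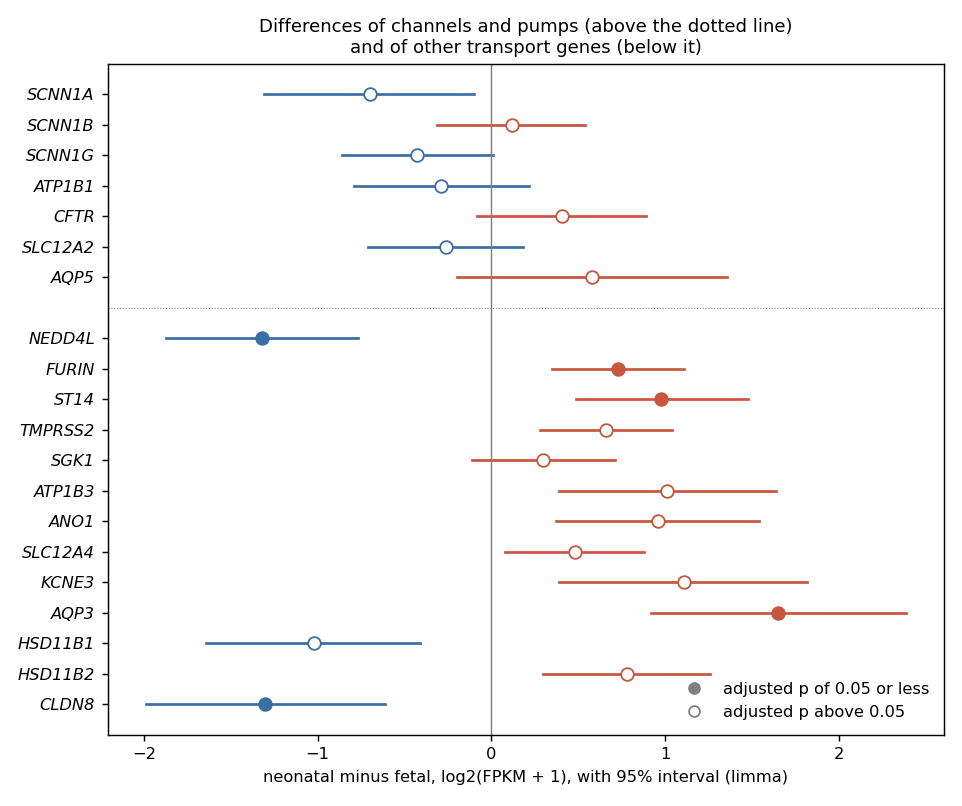
Neonatal minus fetal difference of log2(FPKM + 1) (x axis) with its 95% interval from limma, for the 7 channels and pumps above the dotted line and for 13 genes of the wider lists below it, in blue where lower and in red where higher in the neonatal group. Filled points, with an adjusted p of 0.05 or less, are those of NEDD4L, FURIN, ST14, AQP3 and CLDN8, and all points above the line are open. The 13 genes are all among the 16 of 47 matched genes whose groups do not overlap as deposited, so they do not stand for the lists. After median-of-ratios scaling the groups of SGK1 and SLC12A4 overlap.

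Among the regulators of ENaC, 10 of 14 listed genes were matched, of which 2 rose and 1 fell (all mRNAs 5.41% and 1.45%), with a median of 0.24. NEDD4L, the ubiquitin ligase that binds ENaC subunits and removes the channel from the surface, had 10.7, 13.7 and 11.3 FPKM in the fetal piglets, against 5.88, 3.74 and 3.15 FPKM in the neonatal piglets. The groups lay well apart, and the mean fell to 0.358 times the fetal mean, a difference of -1.32 (standard error 0.24; limma adjusted p = 0.0213). Without Neonatal1 the adjusted p was 0.0241, and it was between 0.0728 and 0.11 without any other sample. FURIN, a protease of the secretory pathway that cleaves and activates ENaC, rose from 24.9 ± 1.49 to 42.0 ± 2.84 FPKM (SD, n = 3 each; difference 0.73, limma adjusted p = 0.0411). FURIN passed in 3 of 8 alternatives with all samples. Its difference was 0.56 with median-of-ratios scaling (adjusted p = 0.0768), 0.45 with quantile normalization (0.157) and 0.61 with centring on epithelial markers (0.139). The adjusted p was 0.052 with a constant prior variance and 0.156 with a replicate block. ST14, the membrane protease matriptase, had 10.9, 12.3 and 9.68 FPKM before birth and 19.4, 20.1 and 29.2 FPKM after it (difference 0.98, limma adjusted p = 0.0365). Whichever of the 6 samples was left out, FURIN and ST14 did not pass, with adjusted p values from 0.0572 to 0.141 and from 0.0506 to 0.116.

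The serine protease TMPRSS2 went from 22.7 ± 1.51 to 36.5 ± 2.29 FPKM (SD, n = 3 each), without overlap, and missed the threshold at a limma adjusted p of 0.0557. SGK1, the kinase that phosphorylates NEDD4L in response to steroid hormones, had 52.8, 52.5 and 46.5 FPKM in the fetal piglets, against 56.5, 62.7 and 68.3 FPKM in the neonatal piglets. The SGK1 groups did not overlap as deposited, but the difference of 0.30 was not past the threshold (limma adjusted p = 0.342) and was -0.04 under quantile normalization. After median-of-ratios scaling the SGK1 groups overlapped, with Fetal2 at 57.84 and Neonatal1 at 56.45. TMPRSS4, a related protease, was low, at 1.57 and 0.993 FPKM on average (difference -0.32, limma adjusted p = 0.548, and -0.03 without Fetal3 or -0.16 without Neonatal3). The ratio of SCNN1A to NEDD4L was 3.34, 2.08 and 2.36 before birth and 2.11, 6.04 and 6.66 after it, where Neonatal1 lay among the fetal samples.

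**Figure D4:**
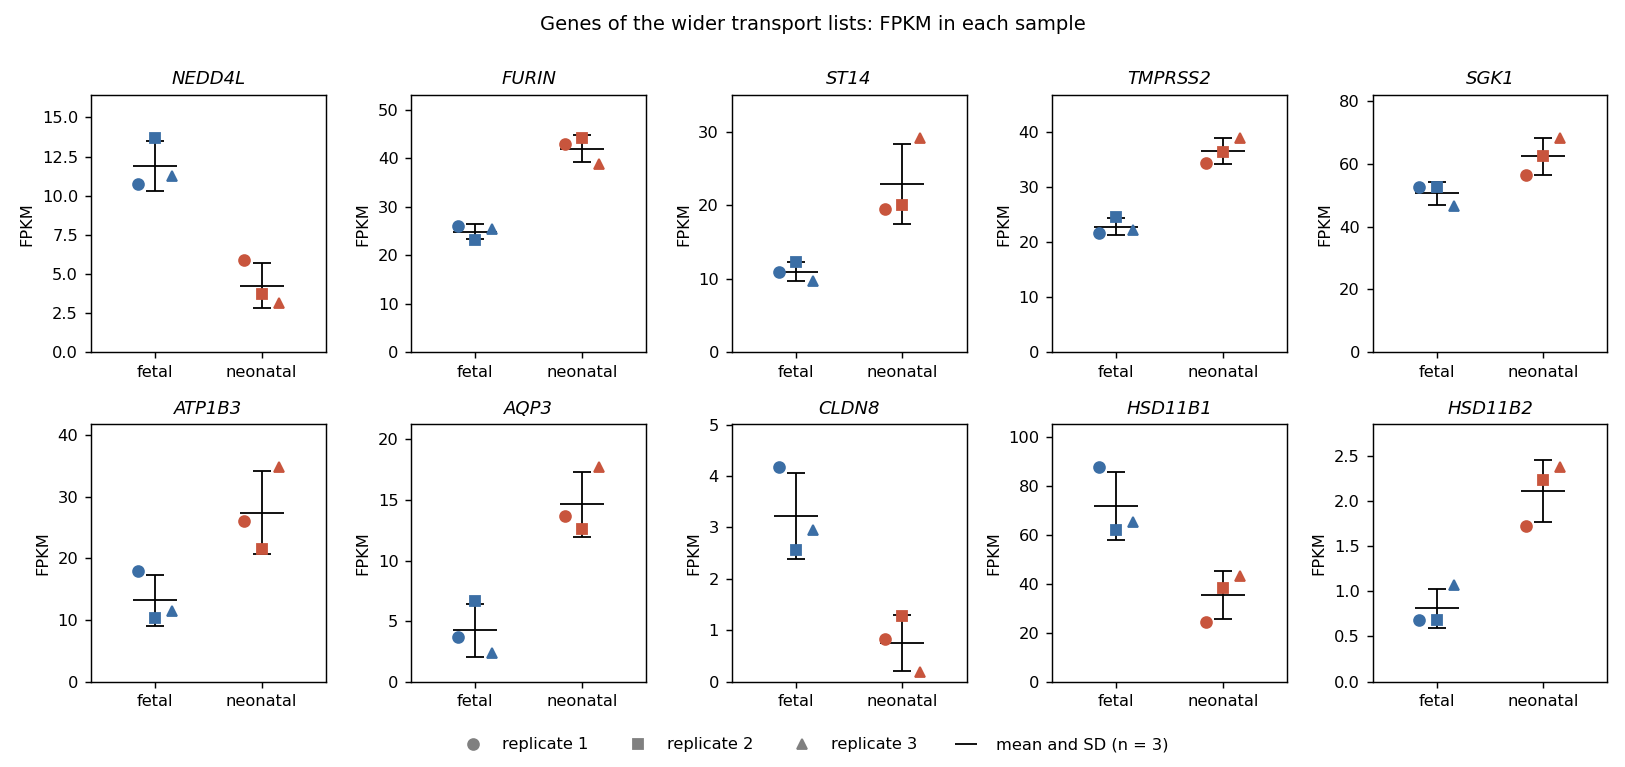
FPKM (y axes, each from 0) of 10 genes of the wider transport lists in the fetal and neonatal samples, with 1 point per piglet and the mean and SD (n = 3). All 10 are among the 16 of 47 matched genes whose groups do not overlap as deposited (all mRNAs 30.5%), so they do not stand for the lists. After median-of-ratios scaling the groups of SGK1 overlap. NEDD4L, CLDN8 and HSD11B1 are the ones with lower neonatal values. Of the 10, NEDD4L, FURIN, ST14, AQP3 and CLDN8 passed the threshold.

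Of the other Na,K-ATPase subunits and the FXYD proteins that modulate the pump, 5 of 14 were matched and none passed the threshold in limma (0 of 5, with 2 at an unadjusted p under 0.05, where 6.87% and 24.2% of all mRNAs did). ATP1B3, the other beta subunit with a substantial level, had 17.9, 10.2 and 11.4 FPKM in the fetal piglets, against 26.0, 21.5 and 34.7 FPKM in the neonatal piglets. All neonatal values of ATP1B3 were above all fetal values (difference 1.01, 95% interval 0.39 to 1.64; limma adjusted p = 0.0689). Set beside ATP1B1, it made up 40.9%, 29.3% and 36.7% of the FPKM of both subunits before birth and 51.9%, 54.5% and 69.1% after it. ATP1B1 was thus the higher beta subunit in 3 of 3 fetal samples and ATP1B3 in 3 of 3 neonatal samples, while their sum overlapped between the groups, at 36.6 ± 6.57 and 46.6 ± 6.25 FPKM (SD, n = 3 each). FXYD3 was below 1 FPKM on average in both groups (difference 0.33, limma adjusted p = 0.589), and was -0.01 without Neonatal1 and 0.64 without Neonatal3.

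Among other chloride channels, cotransporters and their kinases, 7 of 20 were matched and none passed in limma (0 of 7 against 6.87% of all mRNAs, with 2 at an unadjusted p under 0.05 against 24.2%, median 0.15). ANO1, a calcium-activated chloride channel, had 1.27, 0.995 and 0.870 FPKM in the fetal piglets, against 2.66, 2.17 and 4.37 FPKM in the neonatal piglets, without overlap (difference 0.96, limma adjusted p = 0.0664). SLC12A4, a potassium-chloride cotransporter, went from 10.1 ± 1.11 to 14.5 ± 1.23 FPKM (SD, n = 3 each; limma adjusted p = 0.142). ANO6 overlapped between the groups (difference -0.30, limma adjusted p = 0.487), and was -0.13 without Neonatal2 and -0.55 without Neonatal3. Of the epithelial potassium channels, 6 of 10 were matched and none passed in limma (0 of 6 against 6.87%, with 2 at an unadjusted p under 0.05 against 24.2%, median 0.37). KCNE3, a subunit that pairs with KCNQ1 in secretory epithelia, went from 3.16 ± 1.40 to 7.88 ± 2.59 FPKM (SD, n = 3 each; limma adjusted p = 0.0773). KCNE1 had 5.28, 2.42 and 0.286 FPKM before birth and was listed at 0, 0.509 and 0.270 FPKM after it (limma adjusted p = 0.197). The difference of KCNE1 was -1.28, and it was -0.76 without Fetal1, -1.9 without Fetal3 and -2.62 with a pseudocount of 0.1. KCNK1 overlapped between the groups (difference 0.65, limma adjusted p = 0.358), and was 0.33 without Fetal3 and 0.32 without Neonatal3.

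Of the other aquaporins, 4 of 10 were matched and 1 rose (all mRNAs 5.41%), with a median of 0.11. AQP3, which passes water and glycerol and sits at the base of airway cells, had 3.67, 6.63 and 2.35 FPKM in the fetal piglets, against 13.6, 12.6 and 17.7 FPKM in the neonatal piglets. The groups were far apart, and the mean of AQP3 rose to 3.47 times the fetal mean (difference 1.65, standard error 0.31; limma adjusted p = 0.0258). It passed without Fetal2, at 0.0441, and had adjusted p values between 0.063 and 0.108 without any other sample. AQP5 remained far above it: the ratio of AQP5 to AQP3 was 24.8, 11.8 and 40.9 before birth and 6.21, 10.3 and 11.9 after it. AQP9, AQP10 and AQP11 had means of at most 2.05 FPKM and differences of -0.46, -0.14 and 0.36 (limma adjusted p = 0.234, 0.776 and 0.597). The difference of AQP11 ranged from 0.10 without Neonatal1 to 0.77 without Neonatal3, and that of AQP10 was 0.1 without Fetal3.

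For the hormones that act on lung liquid, 6 of 10 listed receptors and enzymes were matched and none passed in limma (0 of 6 against 6.87% of all mRNAs, with 3 at an unadjusted p under 0.05 against 24.2%, median -0.21). HSD11B1, which regenerates active cortisol, had 87.6, 62.1 and 65.4 FPKM in the fetal piglets, against 24.5, 38.2 and 43.3 FPKM in the neonatal piglets. HSD11B2, which inactivates cortisol, had 0.685, 0.678 and 1.06 FPKM in the fetal piglets, against 1.73, 2.23 and 2.37 FPKM in the neonatal piglets. Neither gene overlapped between the groups, in opposite directions. Their differences were -1.02 and 0.78, with limma adjusted p values of 0.0637 and 0.0670. HSD11B1 passed in 3 of 8 alternatives with all samples: median-of-ratios scaling (0.0206), quantile normalization (0.00821) and centring on epithelial markers (0.0494). With a replicate block its limma adjusted p was 0.154. It did not pass with any sample left out, with adjusted p values between 0.0852 and 0.176. The ratio of HSD11B1 to HSD11B2 went from 93.6 ± 33.2 to 16.5 ± 2.08 (SD, n = 3 each). ADRB1, a beta-adrenergic receptor, overlapped between the groups (difference 0.79, limma adjusted p = 0.249, and 0.45 without Fetal2).

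Of the junction genes, 9 of 12 were matched and 1 fell (all mRNAs 1.45%), with a median of -0.18. CLDN8, a claudin of tight epithelia, had 4.17, 2.55 and 2.96 FPKM before birth and 0.822, 1.27 and 0.181 FPKM after it (difference -1.30, standard error 0.29; limma adjusted p = 0.0437). It did not pass with any sample left out, with adjusted p values between 0.072 and 0.138, or with pseudocounts of 0.5 and 0.1, at 0.0519 and 0.0783. OCLN, TJP1 and F11R overlapped between the groups, with differences of -0.40, -0.31 and -0.19 and limma adjusted p values of 0.285, 0.51 and 0.542. Without Neonatal3, OCLN was at -0.25 and TJP1 at -0.05, without Neonatal1 TJP1 was at -0.53, and without Fetal3 F11R was at -0.12.

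Whole lung mixes many cell types, so fewer cells of a type and less RNA per cell cannot be told apart in these values. Of the 7 pan-epithelial markers matched, none passed in limma and their median was -0.05. An unadjusted p under 0.05 was reached by 3 of 7, where 24.2% of all mRNAs did and 6.87% passed. Their summed FPKM was 295.7 to 331.5 in the fetal and 362.3 to 490.6 in the neonatal samples. KRT8, at 104.1 to 141.5 and 140.0 to 243.5 FPKM, made the largest part of this sum, while 4 of the 7 genes had a lower neonatal mean. As deposited, EPCAM lay lower in each neonatal sample and KRT18 and CDH1 higher. After median-of-ratios scaling the groups of CDH1 overlapped, with Fetal3 at 82.57 and Neonatal3 at 80.09. The ratio of SCNN1A to CDH1 was 0.461 ± 0.121 and 0.197 ± 0.0663 (SD, n = 3 each) without overlap, whereas the ratio of SCNN1A to EPCAM overlapped, at 0.739, 0.614 and 0.595 before birth and 0.392, 1.14 and 0.571 after it. Whether SCNN1A separated the groups relative to the epithelium thus depended on the epithelial gene chosen.

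The summed FPKM of 9 alveolar type II markers was 4912 to 5503 in the fetal and 6660 to 11830 in the neonatal samples (0 of 9 past the threshold in limma, 1 at an unadjusted p under 0.05, where 6.87% and 24.2% of all mRNAs did). SFTPC alone, at 3171 to 3902 and 4233 to 8790 FPKM, made most of this sum. Of the 9 genes, 7 had a difference above 0, and the median was 0.27. SFTPA1 and SFTPB also lay higher in each neonatal sample than in any fetal sample (differences 0.97 and 0.54). SFTPD and ABCA3 had differences of 0.74 and 0.27 with overlapping groups. NAPSA overlapped too (difference -0.24, limma adjusted p = 0.545), and SLC34A2, LPCAT1 and ETV5 had differences of 0.07, 0.00 and 0.05. For 6 alveolar type I markers the sums were 792.3 to 1187 and 678.8 to 1176, and AGER and CAV1 made most of them. SCEL was higher, 1 of 6 (all mRNAs 5.41%). For 4 ciliated cell markers they were 48.7 to 80.9 and 47.2 to 52.0. None of the 4 passed the threshold in limma, and 1 had an unadjusted p under 0.05 (all mRNAs 24.2%). For 6 airway secretory and basal markers the sums were 2281 to 7037 and 1167 to 3084, with 1 of 6 genes higher, BPIFB1 (all mRNAs 5.41%). The sum was carried by SCGB3A2, at 2136 to 6790 and 899.5 to 2844 FPKM, while 4 of the 6 genes had a higher neonatal mean and the median difference was 0.05. In this list single libraries stood apart: SCGB1A1, the club cell protein, was at 0.213 FPKM in Neonatal2 against 62.0 to 138.5 in the other 5, and BPIFA1 at 2.48 FPKM in Fetal1 against 70.5 to 352.7. For 9 endothelial markers the sums were 372.4 to 451.4 and 353.2 to 379.3, and for 7 erythroid markers 1263 to 2708 and 971.7 to 1542. None passed the threshold in limma in either list, and 2 in each had an unadjusted p under 0.05 (all mRNAs 24.2%). HBB, at 1201 to 2612 and 866.1 to 1422 FPKM, made most of the erythroid sum, while 4 of the 7 genes had a higher neonatal mean and the median difference was 0.20. For 4 smooth muscle markers the sums were 302.3 to 461.8 and 978.7 to 1623, with 3 genes higher (all mRNAs 5.41%), and for 5 macrophage markers 113.7 to 338.7 and 263.4 to 662.3, with none past the threshold in limma and 4 at an unadjusted p under 0.05 (all mRNAs 24.2%). No marker of the 9 lists that was matched was listed at 0 in any library. The part of these cell types in the values of the channels was not tested.

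Genes with the most similar pattern were sought among 8704 mRNAs with a symbol and a mean of at least 1 FPKM. The measure was the root mean square difference of log2(FPKM + 1), centred on the mean of each gene, over the 6 samples. PDCD4 was closest to SCNN1A, at 0.019, with 34.3, 26.1 and 24.6 FPKM in the fetal and 11.4, 20.9 and 19.4 FPKM in the neonatal samples. RGL2 was closest to SCNN1B, at 0.032, and FPGS to SCNN1G, at 0.046. GUCY1A1 was closest to CFTR, at 0.065, STRBP to SLC12A2, at 0.071, ARHGAP29 to ATP1B1, at 0.075, and ARL2 to AQP5, at 0.081. How close the nearest pattern of other genes lies was not examined, so these names are a description only.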

How the data were processed

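Lung RNA of 3 fetal and 3 neonatal piglets was sequenced. The authors called bases with CASAVA 1.8.2, mapped filtered reads to Sscrofa10.2 with TopHat 2.1.0 and computed the deposited FPKM with Cufflinks 2.2.1. All 14579 mRNAs met their filter of FPKM above 0.5 in at least 1 sample, and no further filter was used. The 6 columns were matched to samples by name. The lncRNA table was not used. Identifiers of 9478 mRNAs took a symbol from a reference table and 362 from a supplementary table of the study. The paper gives mapped reads for each library, but the files hold no reads per gene, so precision rests on the replicates.

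Values were analysed as log2(FPKM + 1) with limma 3.58.1 in R 4.3.3, letting the prior variance follow the mean level, with Benjamini-Hochberg adjustment across the table and a threshold of 0.05. This differs from the authors' test, which needs reads. The fit was tested on simulated data. Ratios and marker sums were computed in Python 3.11.15 and drawn with matplotlib 3.10.9. The genes described and all lists were chosen with earlier results of these data known. Named were the matched channels and pumps, every gene of the 7 wider lists past the threshold, up to 3 more per list with the largest difference, and the gene with the closest pattern to each channel or pump. Some genes that this rule would name are not reported here, though list counts include them. Markers of 9 cell classes were listed in the same way. Labels give no batch. Alternatives were median-of-ratios scaling, quantile normalization, centring on epithelial markers, pseudocounts of 0.5 and 0.1, a low-value filter keeping mRNAs above 1 FPKM in 3 or more samples, a constant prior variance, a block for the replicate number, and the omission of each sample.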

Additional observations from a re-analysis of the deposited data

How the results depend on the processing

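For the 7 channels and pumps, 8 alternatives with all samples and 6 with a sample left out were run. Whichever sample was left out, 0 of 7 passed the threshold in limma. Quantile normalization gave 1 of 7, SCNN1A at -0.97 with an adjusted p of 0.0366. SCNN1B was reversed by median-of-ratios scaling (-0.05), quantile normalization (-0.09) and centring on epithelial markers (-0.01). The other 6 kept their sign under all alternatives. With a sample left out, the differences ranged from -0.86 to -0.45 for SCNN1A, 0.01 to 0.22 for SCNN1B, -0.53 to -0.32 for SCNN1G, -0.45 to -0.15 for ATP1B1, 0.24 to 0.55 for CFTR, -0.38 to -0.13 for SLC12A2 and 0.25 to 0.90 for AQP5. Median-of-ratios scaling moved the neonatal mean of SLC12A2 from 8.28 to 7.71, by more than the spread of the replicates, and no other mean of a group by that much.

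Scaling also moved the median difference of all mRNAs, from 0.13 to -0.0090 with median-of-ratios scaling and to -0.0382 with quantile normalization. Of 1001 mRNAs past the threshold 78.8% were higher, against 66.0% of 985 and 57.9% of 1155 under these settings and 67.1% of 691 with centring on epithelial markers.

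With a sample left out, between 196 and 944 mRNAs and between 0 and 1 of the 47 other transport genes passed. With the replicate number as a block, 401 mRNAs, none of the 7 channels and pumps and none of the 47 other transport genes passed (0 each). The fetal and neonatal piglets came from different sows, so the numbers do not pair them by litter. Deviations of same-numbered samples correlated at -0.0407, -0.00434 and 0.000467, and those of differently numbered samples at -0.04925 to 0.05414. Such values cannot show whether same-numbered samples were processed together. Fewer residual degrees of freedom remain in both settings.

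Reversed differences of other genes were SGK1 at -0.04 under quantile normalization, RGL2 at -0.03 with median-of-ratios scaling, RGL2 at -0.16 under quantile normalization, and, with a sample left out, FXYD3 (from -0.01 without Neonatal1 to 0.64) and AQP10 (from -0.26 to 0.1 without Fetal3). The cause was not tested. Depth limits are not given here, since the tables used hold no read counts, and values under 1 FPKM, such as those of KCNE1 and AQP10, are the least certain.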
